A study of Homo sapiens with 6 samples.

Results

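The genes described here are 9 genes of heme biosynthesis, chosen by name from a table of 35410 genes: ALAS1, ALAS2, SLC25A38, ALAD, UROS, UROD, CPOX, PPOX and FECH. They do not cover every step of the pathway, and the remaining enzyme genes were not analysed here. All 9 had a row under exactly that name, and all 9 were among the 15465 genes that passed the filter on low counts. RNA was measured by MACE-Seq, in which cDNA is read from the 3′ ends of polyadenylated transcripts, in 3 libraries of SEM::mock and 3 of SEM::EGR3. SEM is an established human cell line of B cell precursor leukemia that carries KMT2A::AFF1. SEM::mock was transfected with the empty vector and SEM::EGR3 with a vector for doxycycline-induced expression of EGR3, a zinc finger transcription factor. Cells of both lines received 1 µg/mL doxycycline for 48 h before RNA was extracted, so the inducer is shared by all 6 libraries. Whether either line grew from a single clone is not given in the sources used here.

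Heme is built by a pathway that starts and ends in mitochondria and passes through the cytosol in between. The first and rate-limiting step joins glycine and succinyl-CoA and is catalysed by ALAS1 in all tissues and by ALAS2 in erythroid cells. ALAS1 is repressed by its end product heme, whereas ALAS2 follows the erythroid factor GATA1 and, through an iron-responsive element in its mRNA, the iron supply. Erythroid precursors raise the whole pathway to furnish globin with heme, and other cells make smaller amounts for cytochromes and catalase.

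The labelled lines were checked against marker genes before the pathway was read. For EGR3, the expressed gene, SEM::mock gave 8, 10 and 6 counts, whereas SEM::EGR3 gave 9768, 4952 and 5557. However, the libraries labelled SEM::mock held almost none of the proB transcripts: 10 of 13 proB markers were at 3 counts or fewer in each SEM::mock library, PAX5, EBF1 and CD79A among them. Summed over the list, the proB markers reached 3.17 to 6.45 CPM in SEM::mock and 490 to 518 CPM in SEM::EGR3, in which CD34, DNTT and RAG2 were also at 3 counts or fewer. CPM are counts per 1000000 counts, here with the library totals scaled by TMM. Of 8 genes that mark KMT2A-rearranged leukemia, HOXA9, HOXA7 and CSPG4 were at 3 counts or fewer in each SEM::mock library. That list summed to 47.5 to 54.0 CPM in SEM::mock and to 903 to 961 CPM in SEM::EGR3.

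The erythroid markers, a list that includes ALAS2, were high in both lines. Their 17 genes summed to 4294 to 4472 CPM in SEM::mock and to 4293 to 4420 CPM in SEM::EGR3, mostly from α- and γ-globin genes. HBB, EPB42 and AHSP were at 3 counts or fewer in every library, and SLC4A1 in those of SEM::mock. Myeloid markers summed to 375 to 385 CPM in SEM::mock and 117 to 121 CPM in SEM::EGR3, T cell markers to 86.8 to 99.2 and 138 to 147 CPM, and megakaryocyte markers to 11.2 to 12.1 and 15.6 to 17.3 CPM. These sums hide opposite changes, since 4 of 7 tested T cell markers were higher in SEM::EGR3 and 3 lower, and 2 of 7 tested myeloid markers were higher and 4 lower. Among all tested genes 36.5% were called higher and 32.0% lower. The lines therefore differed in cell identity markers as well as in EGR3. What share of the differences between the lines came with EGR3 and what share with the lines themselves cannot be told apart in these 6 libraries. In bulk RNA, fewer cells of a type and less RNA per cell also cannot be told apart.

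**Figure D1:**
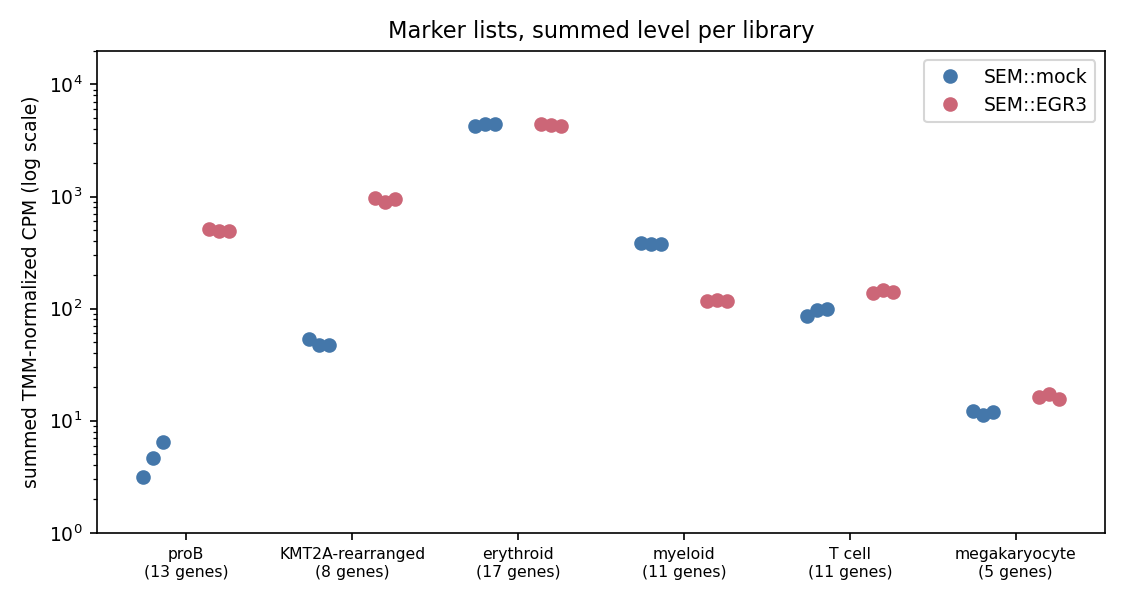
Summed TMM-normalized CPM of each list of marker genes (log scale) in the 3 SEM::mock and 3 SEM::EGR3 libraries, 1 point per library, with the number of genes found in the table under each list. The proB sums lie between 3.17 and 6.45 in SEM::mock and between 490 and 518 in SEM::EGR3, whereas the erythroid sums of both lines lie between 4293 and 4472.

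Counts of the listed genes summed to 5286115 to 6181388 per SEM::mock library and to 7293092 to 15106018 per SEM::EGR3 library. The least counted pathway gene, ALAD, still had 54 counts in its lowest library. None of the 9 genes was therefore near the detection limit.

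All 9 pathway genes differed between the lines, but not in the same direction (edgeR's quasi-likelihood test, with p adjusted by Benjamini-Hochberg over 15465 genes). ALAS1, SLC25A38, ALAD and UROS were higher in SEM::EGR3, and ALAS2, UROD, CPOX, PPOX and FECH were lower. Among all tested genes 36.5% were called higher and 32.0% lower, so calls were common across the table. The libraries of the lines did not overlap for 9 of 9 pathway genes, which was the case for 70.1% of all tested genes. The median log2 fold change of the pathway genes was −0.12, beside 0.03 for all tested genes, and single values ran from −1.63 for PPOX to 0.90 for UROS. In pathway order of these 9, the higher genes lay among the early steps, and the mitochondrial enzymes of the last steps, CPOX, PPOX and FECH, were all lower.

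**Figure D2:**
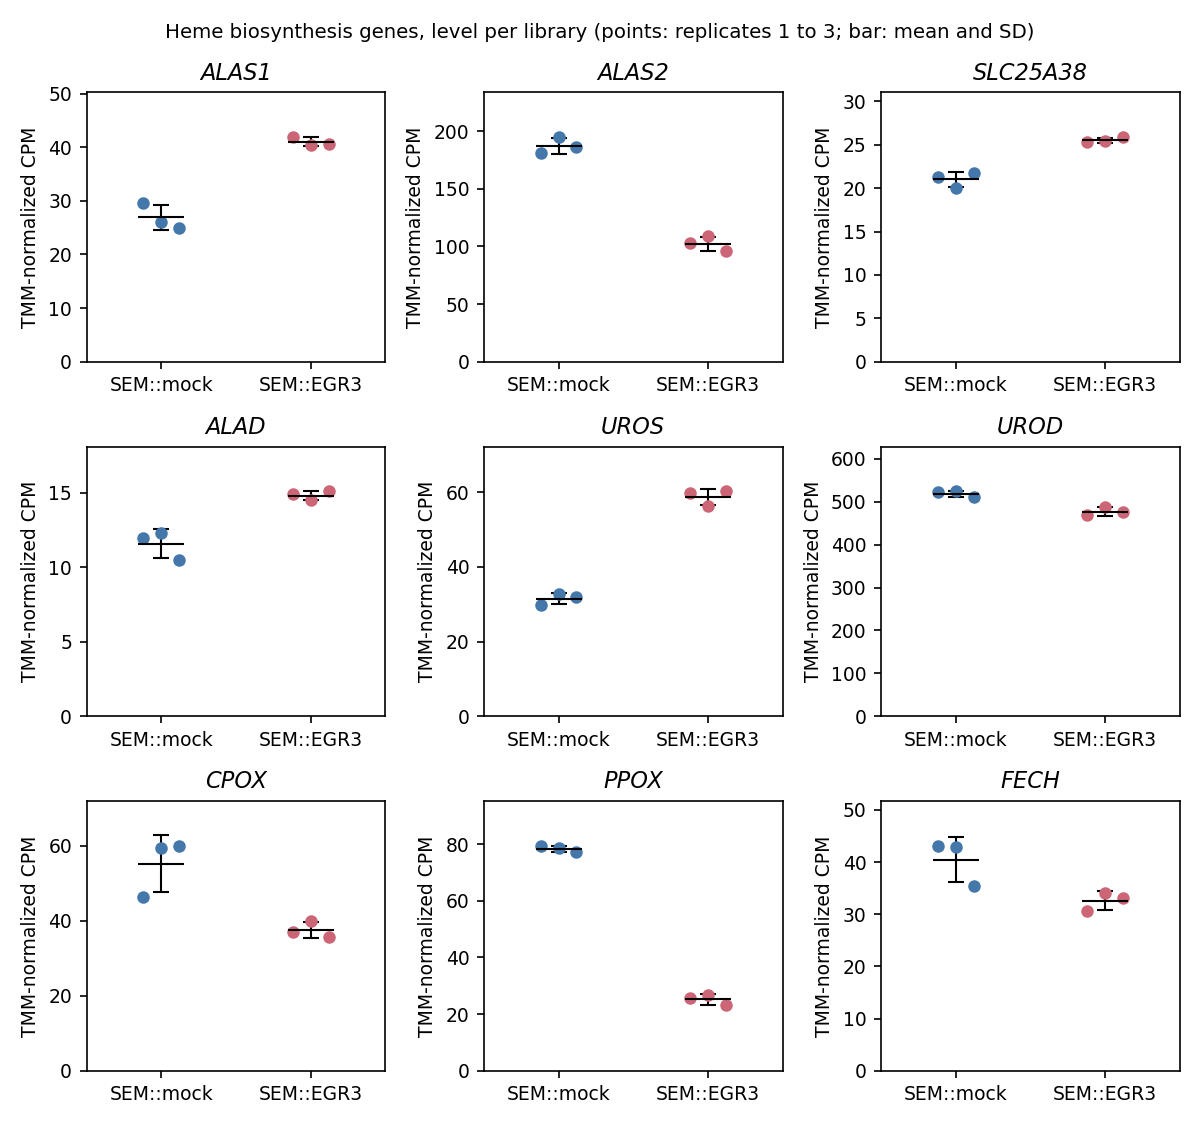
TMM-normalized CPM of the 9 pathway genes in each library, in pathway order, with the mean and SD of 3 libraries per line as bars; each panel has its own axis from 0. In every panel the points of SEM::mock and SEM::EGR3 are separate, with PPOX between 77.1 and 79.4 CPM in SEM::mock and between 23.1 and 26.8 CPM in SEM::EGR3.

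Sequence before the transcription start is shown for 4 of the genes, ALAS1, which rose, and ALAS2, CPOX and PPOX, which fell. They were picked after their changes and the matches of EGR and GATA letters were seen. The windows of all 4 also hold KLF letters, and those of ALAS1, CPOX and PPOX hold SP letters, which are not capitalised here. The RefSeq promoter windows (GRCh38.p14, from 250 bases before to 50 bases after a start) were found for 8 of the 9 genes, with 10 windows in all, and UROS was not matched. Capitals mark GTGGGCG, a short form of the EGR motif, in ALAS1, and GATAA, the core of the GATA motif, in the other genes. These letters read CGCCCAC and TTATC where they lie on the opposite strand. The ALAS1, ALAS2 and CPOX sequences are the 250 bases before the start, at chr3:52197833-52198082 (plus strand), chrX:55030978-55031227 (minus strand) and chr3:98593612-98593861 (minus strand). The PPOX sequence is 30 bases around the match before its second annotated start, at chr1:161166571-161166600 (plus strand).
ALAS1: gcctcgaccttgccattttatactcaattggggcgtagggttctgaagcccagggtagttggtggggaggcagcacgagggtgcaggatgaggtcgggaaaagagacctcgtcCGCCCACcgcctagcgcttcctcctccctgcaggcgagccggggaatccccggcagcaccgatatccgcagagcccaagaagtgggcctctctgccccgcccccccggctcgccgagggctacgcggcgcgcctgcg
ALAS2: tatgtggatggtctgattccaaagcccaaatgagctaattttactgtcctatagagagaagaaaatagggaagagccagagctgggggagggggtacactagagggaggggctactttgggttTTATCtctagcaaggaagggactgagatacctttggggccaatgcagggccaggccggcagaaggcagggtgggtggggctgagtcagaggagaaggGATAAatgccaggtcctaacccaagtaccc
CPOX: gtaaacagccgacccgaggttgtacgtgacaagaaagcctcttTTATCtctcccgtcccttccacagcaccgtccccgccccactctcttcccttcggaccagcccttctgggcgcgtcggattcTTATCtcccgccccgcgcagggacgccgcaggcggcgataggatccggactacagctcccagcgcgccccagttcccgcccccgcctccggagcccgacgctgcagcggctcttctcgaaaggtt
PPOX: agggtgtggcccTTATCtgcacccagcaga

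GATAA occurred on either strand in the windows of ALAS2, CPOX and PPOX, and in 22.7% of all 35116 promoter windows. Counted from −1 for the base just before the start, it began at −127 and −30 in ALAS2, at −207 and −125 in CPOX and at −63 in PPOX. All 3 genes were lower in SEM::EGR3, whereas UROD and FECH, which were also lower, had no GATAA in their windows. GTGGGCG occurred in ALAS1 and ALAD, both of which were higher, and in 9.52% of all windows. SLC25A38, which was also higher, had no GTGGGCG in its window, and not every ALAD window held it. In ALAS1 and ALAD, GTGGGCG overlapped a match of GGGCGG, the SP motif, which occurred in 6 pathway genes and in 45.0% of all windows. The long EGR motif GCGTGGGCG occurred in none of the 10 windows and in 0.795% of all. CACCC, the KLF motif, occurred in 7 pathway genes and in 59.9% of all windows. A match describes the letters in these windows and is not a measured site.

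At the first step the isozymes moved in opposite directions. ALAS1 (ENSG00000023330, chromosome 3, 52198086 to 52214327, plus strand; all gene positions are those of GENCODE release 29 on GRCh38), the ubiquitous aminolevulinate synthase, had 29.6, 26.0 and 25.0 CPM in SEM::mock and 41.9, 40.4 and 40.6 CPM in SEM::EGR3. Every SEM::EGR3 library was above every SEM::mock library. The mean rose from 26.9 ± 2.40 to 41.0 ± 0.808 CPM (mean and SD of n = 3 libraries per line here and for the genes that follow), which gave a log2 fold change of 0.61 (SE 0.09, adjusted p = 8.99e-07). The underlying counts were 168, 156 and 128 in SEM::mock and 652, 301 and 369 in SEM::EGR3.

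ALAS2 (ENSG00000158578, chromosome X, 55009055 to 55031064, minus strand), the erythroid isozyme, had 181, 195 and 186 CPM in SEM::mock and 103, 109 and 95.9 CPM in SEM::EGR3. All SEM::EGR3 libraries were lower than all SEM::mock libraries. The mean fell from 187 ± 7.13 to 102 ± 6.34 CPM, a log2 fold change of −0.87 (SE 0.06, adjusted p = 2.14e-12). In counts, 1028, 1169 and 953 in SEM::mock stood against 1600, 809 and 871 in SEM::EGR3, so ALAS2 transcripts were plentiful in both lines.

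Near its 5′ end the ALAS2 transcript carries the hairpin to which iron regulatory proteins bind. It is shown because its loop letters were found near the start of ALAS2 and of no other pathway gene with a window. It lies at chrX:55030944-55030966 (minus strand, RefSeq GRCh38.p14), and capitals mark the loop letters CAGTGC.
ALAS2 hairpin: gttcgtcctCAGTGCagggcaac

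In the first 50 bases from the start, CAGTGC was found in 1 of the 10 pathway windows, that of ALAS2, and in 1.69% of all windows; these letters were chosen after the windows were seen. The element acts on translation, which MACE-Seq does not measure.

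Because both isozymes catalyse the same step, the share of ALAS2 in their combined counts was compared between libraries. The share was 86.0% (exact 95% binomial interval 83.9 to 87.9%), 88.2% (86.4 to 89.9%) and 88.2% (86.1 to 90.0%) in the SEM::mock libraries. In the SEM::EGR3 libraries it was 71.0% (69.1 to 72.9%), 72.9% (70.2 to 75.5%) and 70.2% (67.6 to 72.8%). No interval of one line reached an interval of the other. On average ALAS2 made up 87.4 ± 1.29% in SEM::mock and 71.4 ± 1.35% in SEM::EGR3 (SD, n = 3 each). The corresponding ratio of ALAS2 to ALAS1 counts was 7.02 ± 0.78 and 2.50 ± 0.169. The share needs no normalization between libraries and was not tested, and the intervals cover counting error only. Since the counts were not corrected for transcript length, it was used to compare libraries and not to rank the isozymes.

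**Figure D3:**
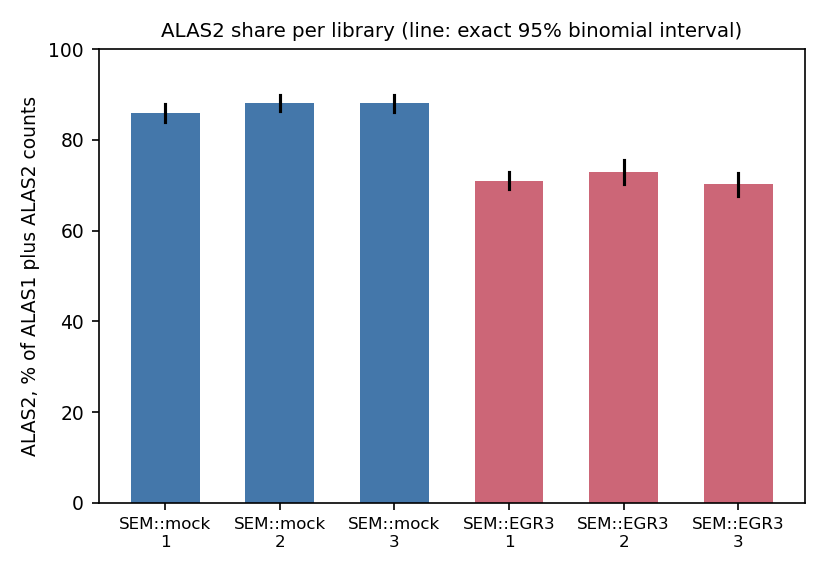
ALAS2 as a percentage of ALAS1 plus ALAS2 counts in each library, with exact 95% binomial intervals as lines. The 3 SEM::mock bars stand at 86.0 to 88.2% and the 3 SEM::EGR3 bars at 70.2 to 72.9%.

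SLC25A38 (ENSG00000144659, chromosome 3, 39383324 to 39397351, plus strand) carries glycine into the mitochondrial matrix for the first step. It had 21.3, 20 and 21.7 CPM in SEM::mock and 25.3, 25.4 and 25.9 CPM in SEM::EGR3. The SEM::EGR3 libraries were all higher, by a margin that was small but larger than the spread within a line. The mean rose from 21.0 ± 0.869 to 25.5 ± 0.309 CPM, a log2 fold change of 0.28 (SE 0.10, adjusted p = 0.0117). Without SEM::mock replicate 2, which had the lowest level, the log2 fold change was 0.23 and its adjusted p was 0.0660.

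Of the cytosolic enzymes among the 9 genes, ALAD and UROS were higher in SEM::EGR3 and UROD was slightly lower. ALAD (ENSG00000148218, chromosome 9, 113386317 to 113401333, minus strand) condenses aminolevulinic acid to porphobilinogen and is the enzyme inhibited in lead poisoning. It had 12, 12.3 and 10.5 CPM in SEM::mock and 14.9, 14.5 and 15.1 CPM in SEM::EGR3, and the lines did not overlap. The mean rose from 11.6 ± 0.948 to 14.8 ± 0.303 CPM, a log2 fold change of 0.35 (SE 0.13, adjusted p = 0.0165). Here too 1 library decided the call, since without SEM::mock replicate 3 the log2 fold change was 0.27 and the adjusted p 0.0948.

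UROS (ENSG00000188690, chromosome 10, 125784980 to 125823285, minus strand) closes the tetrapyrrole ring as uroporphyrinogen III and is the gene of congenital erythropoietic porphyria. It had 29.7, 32.7 and 32.0 CPM in SEM::mock and 59.8, 56.3 and 60.2 CPM in SEM::EGR3. The lines were far apart, and no other pathway gene had a log2 fold change as high as that of UROS. Its mean rose from 31.5 ± 1.55 to 58.8 ± 2.12 CPM, a 1.87-fold difference and a log2 fold change of 0.90 (SE 0.08, adjusted p = 1.63e-10). This value stood at percentile 81.9 of all tested genes.

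UROD (ENSG00000126088, chromosome 1, 45012147 to 45015575, plus strand), which decarboxylates uroporphyrinogen to coproporphyrinogen, had 522, 524 and 512 CPM in SEM::mock and 468, 488 and 475 CPM in SEM::EGR3. Although the lines did not overlap, they lay close together. The mean fell from 519 ± 6.95 to 477 ± 10.3 CPM, a log2 fold change of −0.12 (SE 0.05, 95% interval −0.23 to −0.02, adjusted p = 0.0278). UROD kept its direction under all 15 alternatives of the processing, but lost its call in 10 of them, for example without normalization factors (log2 fold change −0.05, adjusted p = 0.382). The adjusted p was at 0.05 and no longer under the threshold without SEM::mock replicate 2, 0.103 without SEM::EGR3 replicate 1 and 0.0847 without SEM::EGR3 replicate 3.

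The mitochondrial enzymes of the last steps were all lower in SEM::EGR3. CPOX (ENSG00000080819, chromosome 3, 98579446 to 98593723, minus strand), which converts coproporphyrinogen to protoporphyrinogen, had 46.5, 59.4 and 60.0 CPM in SEM::mock and 36.9, 40.0 and 35.8 CPM in SEM::EGR3. Replicate 1 of SEM::mock lay below the other two, and all SEM::EGR3 libraries lay lower still. The mean fell from 55.3 ± 7.63 to 37.5 ± 2.18 CPM, a log2 fold change of −0.56 (SE 0.09, adjusted p = 3.73e-06).

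PPOX (ENSG00000143224, chromosome 1, 161166410 to 161178013, plus strand), which oxidises protoporphyrinogen to protoporphyrin and is the gene of variegate porphyria, had the largest difference of the 9 genes. It had 79.4, 78.6 and 77.1 CPM in SEM::mock and 25.8, 26.8 and 23.1 CPM in SEM::EGR3. The libraries of each line lay close together and far from those of the other line. The mean fell from 78.4 ± 1.13 to 25.2 ± 1.91 CPM, to 0.322 of the SEM::mock level, with a log2 fold change of −1.63 (SE 0.07, 95% interval −1.79 to −1.48, adjusted p = 8.76e-16). Only 3.06% of all tested genes had a log2 fold change at or below this value. In raw counts, 451, 471 and 395 in SEM::mock stood against 401, 200 and 210 in the more deeply sequenced SEM::EGR3 libraries.

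FECH (ENSG00000066926, chromosome 18, 57548283 to 57586772, minus strand), ferrochelatase, inserts iron into protoporphyrin and so completes heme. It had 43.1, 42.9 and 35.5 CPM in SEM::mock and 30.6, 34.1 and 33.2 CPM in SEM::EGR3. The lowest SEM::mock library was only slightly above the highest SEM::EGR3 library. The mean fell from 40.5 ± 4.30 to 32.6 ± 1.83 CPM, a log2 fold change of −0.33 (SE 0.09, adjusted p = 0.00187).

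**Figure D4:**
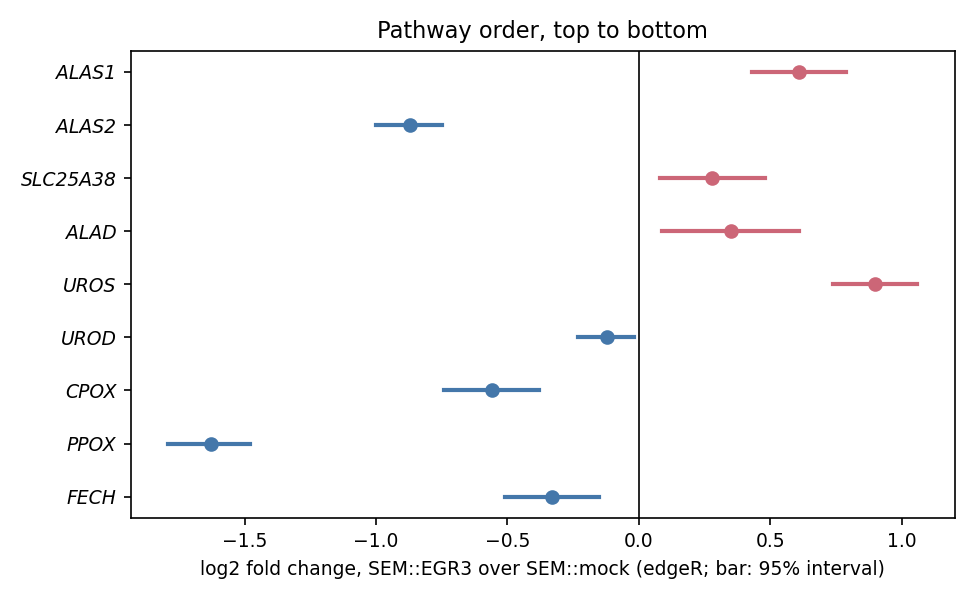
Log2 fold change of SEM::EGR3 over SEM::mock for the 9 genes in pathway order from top to bottom, with edgeR's 95% intervals as bars (n = 3 libraries per line). ALAS1, SLC25A38, ALAD and UROS lie right of 0, and ALAS2, UROD and the last 3 enzymes lie left of 0, PPOX farthest at −1.63.

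Some of the genes share bases with a neighbour, and the strand setting of the counting is not given in the sources used here. PPOX overlaps the oppositely oriented B4GALT3 by 6659 bases, with 6703 bases between the 3′ ends of the genes. B4GALT3 fell too, from 144 ± 12.6 to 97.1 ± 11.2 CPM (log2 fold change −0.58, SE 0.08, adjusted p = 2.76e-07). ALAS2 and the oppositely oriented APEX2 meet tail to tail and share 3 bases. APEX2 had 47.2 ± 4.37 CPM in SEM::mock and 35.1 ± 2.57 CPM in SEM::EGR3 (log2 fold change −0.43, SE 0.08, adjusted p = 7.82e-05). UROS spans MIR4484, and CPOX shares 6053 bases with AC021660.3 on the same strand, a gene not used here. What these neighbours add to the counts of the pathway genes was not tested.

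Around the pathway, 92 further genes in 5 lists were read from the same test. The counts of each list stand beside 36.5% called higher and 32.0% called lower among all 15465 tested genes. No list was tested as a set. Among mitochondrial carriers and cofactor genes 15 of 17 were tested, of which 5 were higher, 7 lower and 3 not past the threshold (median log2 fold change −0.01). TMEM14C, which moves protoporphyrinogen towards the matrix, fell from 250 ± 6.33 to 145 ± 2.70 CPM (log2 fold change −0.78, SE 0.05, adjusted p = 2.34e-12). ABCB10, a transporter of the inner mitochondrial membrane, fell from 43.2 to 25.4 CPM (log2 fold change −0.77, SE 0.08). TMEM14C, ABCB10 and the last enzymes of the pathway were lower in the same libraries. SLC25A39, a carrier of glutathione into mitochondria, fell from 153 to 105 CPM (log2 fold change −0.54, SE 0.06), whereas the related SLC25A40 rose from 27.2 to 50.2 CPM (log2 fold change 0.89, SE 0.09). Further genes that rose, named after their values were seen, were GLRX5, which serves iron-sulfur clusters (log2 fold change 0.41, SE 0.05), CLPX, an unfoldase that activates ALAS (0.31, SE 0.07), and the chaperone HSPA9 (0.15, SE 0.05).

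For the substrates of the first step, 11 of 12 genes were tested, of which 3 were higher, 3 lower and 5 not past the threshold (median log2 fold change −0.09). SHMT2, which makes glycine from serine in mitochondria, rose from 199 ± 2.72 to 350 ± 19.7 CPM (log2 fold change 0.82, SE 0.06, adjusted p = 2.17e-12). GLDC, the decarboxylase of the glycine cleavage system, had 0 counts in every SEM::mock library and 87, 44 and 60 counts in SEM::EGR3. It was at least 11.2-fold higher when 3 counts per library were taken as the limit of SEM::mock. The glycine carrier SLC6A9 fell from 8.07 to 3.65 CPM (log2 fold change −1.06, SE 0.20), and SUCLG2, a subunit of succinyl-CoA synthetase, from 39.3 to 28.8 CPM (log2 fold change −0.44, SE 0.08). The last gene called in each direction, named after its values were seen, was OGDH (log2 fold change 0.24, SE 0.07), of the complex that forms succinyl-CoA, and DLD (−0.30, SE 0.06), a component common to that enzyme complex and the glycine cleavage system.

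Of 18 genes of heme export, import, breakdown and sensing 16 were tested, of which 9 were lower, 3 higher and 4 not past the threshold. Among all tested genes 32.0% were lower and 36.5% higher. The median log2 fold change of the list was −0.46. The exporter ABCG2 fell from 36.3 ± 4.87 to 8.80 ± 0.873 CPM (log2 fold change −2.06, SE 0.12), and the heme-binding HEBP2 from 86.5 ± 2.32 to 21.5 ± 1.47 CPM (−2.01, SE 0.08). Both biliverdin reductases, which reduce the product of heme cleavage, were lower, BLVRA by a log2 fold change of −1.31 (SE 0.08) and BLVRB by −1.21 (SE 0.06). The 3 genes that rose, named after their values were seen, were the heme transporter SLC48A1 (log2 fold change 0.95, SE 0.07), the heme-binding repressor NR1D1 (0.79, SE 0.21) and the heme-sensing repressor BACH1 (0.39, SE 0.08). HMOX1, the inducible heme oxygenase, and FLVCR2 did not pass the filter on low counts. HMOX1 had no count in SEM::mock and a mean of 1.56 CPM in SEM::EGR3.

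Among proteins that carry or modify heme, 19 of 27 genes were tested, of which 5 were higher, 7 lower and 7 not past the threshold (median log2 fold change −0.06). The globins moved in opposite directions, although reads of the near-identical pairs HBA1 and HBA2, and HBG1 and HBG2, can be split between the copies, so that each single value is uncertain. HBA2 rose from 212 ± 24.7 to 1076 ± 58.4 CPM (log2 fold change 2.35, SE 0.07) and HBA1 from 513 ± 25.6 to 1491 ± 35.3 CPM (1.54, SE 0.05). HBG2 fell from 2333 ± 38.1 to 945 ± 30.6 CPM (log2 fold change −1.30, SE 0.05). NOS3, a heme-dependent nitric oxide synthase, fell from 26.7 to 5.74 CPM (log2 fold change −2.17, SE 0.14). The other 3 genes that rose, named after their values were seen, were COX10 (log2 fold change 0.51, SE 0.11) and COX15 (0.72, SE 0.09), which make heme A, and the cytochrome CYB5A (1.24, SE 0.11).

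In a list of regulators of ALAS1 and ALAS2, 17 of 18 genes were tested, of which 6 were higher, 8 lower and 3 not past the threshold (median log2 fold change −0.14). The list also holds TFRC, a receptor for iron uptake, which is 1 of the 8 lower genes. KLF1, an erythroid activator of heme and globin genes, fell from 160 ± 5.5 to 35.7 ± 1.51 CPM (log2 fold change −2.18, SE 0.06, adjusted p = 1.45e-19). LMO2, a partner of GATA1 and TAL1, fell from 110 to 31.8 CPM (log2 fold change −1.77, SE 0.08), and NFE2 from 216 to 135 CPM (−0.68, SE 0.06). GATA1 itself differed little, with 335 ± 9.65 CPM in SEM::mock and 285 ± 8.68 CPM in SEM::EGR3 (log2 fold change −0.23, SE 0.05, adjusted p = 3.42e-04). SIRT1, a deacetylase, rose from 10.4 to 21.4 CPM (log2 fold change 1.02, SE 0.12). The other genes that rose, named after their values were seen, were NRF1 (0.65, SE 0.13), SP1 (0.57, SE 0.09) and PPARGC1B (0.53, SE 0.13). ACO1 (0.51, SE 0.08) and NR1H3 (0.34, SE 0.11) rose too. The other genes that fell were TFRC (−0.55, SE 0.09), GATA2 (−0.40, SE 0.06), TAL1 (−0.37, SE 0.07) and LDB1 (−0.35, SE 0.07). PPARGC1A, a coactivator of ALAS1, was the gene not tested, with 1 count over all 6 libraries. Of 14 tested erythroid markers, 4 were higher and 10 lower, beside 36.5% and 32.0% of all tested genes. ALAS2 was among the lower ones. The part of this marker shift in the lower ALAS2, CPOX, PPOX and FECH levels was not tested.

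**Figure D5:**
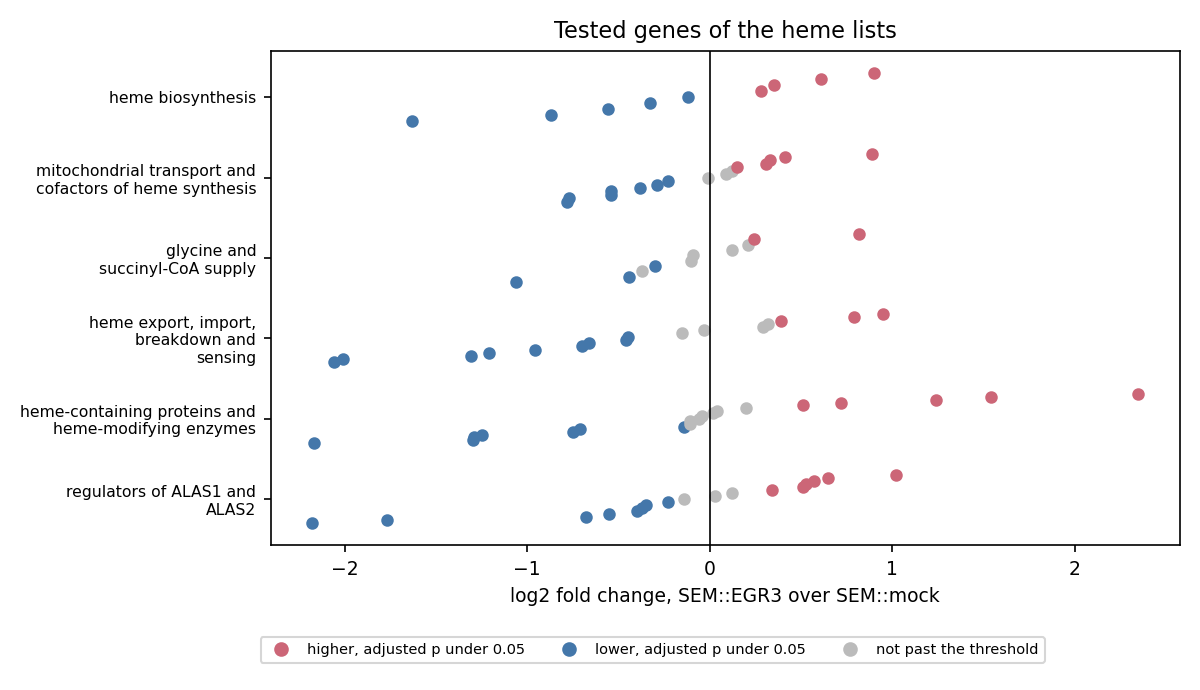
Log2 fold change of SEM::EGR3 over SEM::mock for each tested gene of heme biosynthesis and of the 5 surrounding lists, 1 point per gene, coloured by call; GLDC is left out because it had no count in SEM::mock. Within heme biosynthesis the points run from −1.63 to 0.90. In the list of export, import, breakdown and sensing 9 of 16 points are called lower, beside 32.0% of all tested genes.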

How the data were processed

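RNA of 3 SEM::mock and 3 SEM::EGR3 libraries was profiled by MACE-Seq. The submitters' processing notes name bcl2fastq, Bowtie2, HTSeq and GRCh38; versions and strand setting are not given in the sources used here. The authors deposited raw counts per gene and library, which were used here. They also deposited CPM, named TPM, each being the count per 1000000 counts of a library total between 7172067 and 20310325, and a signal column of counts divided by a size factor. The CPM served only to recover the library totals, and the size factor column was not used for results. Log2 fold changes and p-values of the authors' own DESeq2 comparison were not used. The column headings spell the gene ERG3 and were read as SEM::EGR3, the only such line in the labels. Every column of per-sample values was mapped to a labelled library (0 unmapped).

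The lines were compared with edgeR 4.0.16 under R 4.3.3 (filterByExpr, TMM, glmQLFit, glmQLFTest, line as the only term), and p-values were adjusted by Benjamini-Hochberg over 15465 genes with a threshold of 0.05. The procedure was also run on simulated counts, in which far fewer genes differed than were called here. That run therefore does not test the scaling. CPM printed are TMM-normalized counts per 1000000 listed counts. The detection limit was set at 3 counts per library, and a gene that stayed there in a whole line was taken as not detected in it, with folds given as lower bounds against 3 counts per library (0.538 CPM in SEM::mock, 0.308 CPM in SEM::EGR3), which cover counting error only. Replicates of a line differed by more than counting noise (chi-square per degree of freedom 1.71 to 3.12). With 3 libraries per line, p-values set the difference between the lines against the spread between libraries that the labels call biological replicates. They do not cover the spread between independently made lines.

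All 9 pathway genes were named, and from each surrounding list up to 4 genes with the largest absolute log2 fold change among those called, not overlapping and averaging 20 counts or more in the line with the higher level. Defining erythroid and proB markers and EGR3 were named as checks. The remaining list genes enter only the counts, and some items are not reported here. The pathway genes, lists and tests were chosen with earlier results of these data known. Alternatives were DESeq2 1.42.0 and its size factors, upper-quartile, no or library-total scaling, other filters, a replicate block, a minimum absolute log2 fold change of 0.5 and leaving out each library. Positions are from GENCODE release 29 (GRCh38), which held 97.0% of the gene identifiers. Promoter letters were searched on both strands of the RefSeq windows.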

Additional observations from a re-analysis of the deposited data

How the results depend on the processing

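All 9 pathway genes kept their direction under each of the 15 alternatives. ALAS2 (log2 fold change −0.92 to −0.78), UROS (0.85 to 0.99) and PPOX (−1.66 to −1.54) also kept their call in each. With a minimum absolute log2 fold change of 0.5, 1 pathway gene was called higher and 2 lower. The same setting left 3225 genes higher and 2176 lower among all tested genes, 1 higher and 2 lower in the list of transport and cofactors, 2 higher and 1 lower for glycine and succinyl-CoA, 1 higher and 7 lower for export, import, breakdown and sensing, 4 higher and 5 lower among the proteins that carry or modify heme, and 1 higher and 3 lower among the regulators. With DESeq2's Wald test 2 pathway genes were called higher, since SLC25A38 (adjusted p = 0.0622) and ALAD (0.0774) were lost. The list of glycine and succinyl-CoA had 5 genes higher with the authors' library totals, and the export list 5 higher with those totals, without normalization factors, and with at least 10 counts in every library. Leaving out 1 library in turn gave 3 to 4 pathway genes higher and 4 to 5 lower. Same-numbered replicates did not deviate together (correlations −0.138, −0.0935 and −0.0431), so the numbers were not taken as pairs. With the replicate block, 4 pathway genes were higher and 4 lower, UROD being lost (adjusted p = 0.0910), and 5388 genes were higher and 4694 lower among all genes. The small differences of SLC25A38, ALAD and UROD changed call with the setting, and the cause was not tested. Of the pathway genes, ALAD rested on the fewest counts (54 in its lowest library) and had the largest SE (0.13).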
